A study of Homo sapiens with 6 samples.

Results

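The genes described here are those of the ATF4 stress response and the cytosolic aminoacyl-tRNA synthetases that belong to it. They were named as a list of 37 symbols: ATF4 and partner transcription factors, feedback and stress effectors, secreted factors, serine, asparagine and mitochondrial one-carbon enzymes, amino acid transporters, and 9 cytosolic synthetases with the tRNA exporter XPOT. Of these, 36 had a row among the 22701 genes of the deposited table. ADM2, a secreted peptide hormone, has no row in the table used here.

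Polyadenylated RNA was sequenced from LX-2 cells, an immortalized human line of hepatic stellate cells, the liver cells that lay down collagen in fibrosis. In 3 libraries the cells were given TGF-β together with 20 µM LIG (ligustilide, a plant phthalide), hereafter the LIG libraries. In the other 3 they were given TGF-β alone, hereafter the TGF-β libraries, so TGF-β, at a labelled 5 µg/mL, was present in every library. All values come from 1 cell line, no treatment time is given, and nothing states that the 3 libraries of a group came from separate cultures, so the p-values measure the spread between these libraries only.

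ATF4 is a basic leucine zipper transcription factor made when translation initiation factor eIF2 is phosphorylated by one of its kinases, which sense misfolded protein in the endoplasmic reticulum, amino acid shortage, viral RNA or haem and mitochondrial stress. Its own mRNA is held back by upstream reading frames and is translated better under stress, so ATF4 activity can change without a change of its mRNA. ATF4 then raises genes that make, import and charge amino acids onto tRNA, and in fibroblasts serine and glycine from this programme feed collagen synthesis. It binds together with C/EBP factors at the C/EBP-ATF response element, whose core is written TGATGNAA.

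The promoter windows of the genes were searched for this core, because it is the site through which ATF4 acts on many of them. RefSeq promoter windows (GRCh38.p14, 250 bases before to 50 after the start) were matched for 32 of the 37 genes, and NUPR1, INHBE, PSPH, SHMT2 and ALDH1L2 had none in that table. TGATGNAA, or TTNCATCA as its reverse, was present in 11 of the 32 (34.4%), against 4.46% of 27305 genes and 3.62% of 35116 windows. The stricter core TGATGCAA, which is contained in the first, was present in 7 of the 32 (21.9%), against 1.08% of genes and 0.866% of windows. Among the synthetases listed, 6 of 9 held TGATGNAA (66.7%), namely AARS1, GARS1, CARS1, IARS1, MARS1 and NARS1, while the other holders were ATF3, CEBPG, CHAC1, ASNS and SLC7A1. Of cytosolic synthetases outside the list 1 of 7 with a window held it (TARS1), and of mitochondrial synthetases 1 of 14 (YARS2). The list was drawn up from ATF4 target genes, so these shares describe it and are not a test, and a match is not evidence that the site is bound. The sequences of 8 holders are printed, because they include the well-studied elements of CHAC1 and ASNS and the synthetases with the stricter core. Each is written 5′ to 3′ on the strand of its gene, with the 8 bases of the core in capitals.
CEBPG (chr19:33374041-33374086, plus strand): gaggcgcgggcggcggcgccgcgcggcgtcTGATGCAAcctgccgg
CHAC1 (chr15:40953232-40953277, plus strand): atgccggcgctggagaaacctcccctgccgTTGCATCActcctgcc
ASNS (chr7:97872461-97872506, minus strand): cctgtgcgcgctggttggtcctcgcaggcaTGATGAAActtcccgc
AARS1 (chr16:70289678-70289723, minus strand): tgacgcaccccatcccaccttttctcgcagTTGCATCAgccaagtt
CARS1 (chr11:3057410-3057455, minus strand): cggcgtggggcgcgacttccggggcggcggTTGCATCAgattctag
IARS1 (chr9:92293695-92293740, minus strand): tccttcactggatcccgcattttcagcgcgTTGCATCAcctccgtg
MARS1 (chr12:57488034-57488079, plus strand): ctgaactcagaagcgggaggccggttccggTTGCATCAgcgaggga
NARS1 (chr18:57621807-57621852, minus strand): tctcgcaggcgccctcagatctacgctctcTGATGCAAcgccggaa

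The first base of the core lay at position -42 from the start in CEBPG, -209 in CHAC1, -68 in ASNS and -187 in AARS1. It lay at -13 in IARS1, -4 in MARS1 and -2 in CARS1, and in NARS1 it lay at 15, within the transcribed bases. The core thus sat within 13 bases of the start, on the opposite strand of the gene, in 3 of the 6 synthetases that held it.

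The libraries held between 38401783 and 39260090 fragments, recovered from the deposited FPKM values (fragment counts divided by gene length and sequencing depth). All 12 stellate cell and fibroblast markers averaged 1 FPKM or more, none of the macrophage or endothelial markers reached it, and of the hepatocyte markers SERPINA1 alone did, while HNF4A, which defines hepatocytes, was at most 0.0035 FPKM. The summed FPKM of the stellate markers was 3160 to 3560 in LIG libraries and 3569 to 3745 in TGF-β libraries. That of the 4 epithelial markers with a row, of which KRT7 and KRT8 reached 1 FPKM, was 123 to 153 in LIG libraries and 171 to 185 in TGF-β libraries. VIM, at a mean of 1852 FPKM, weighs most in the stellate sum, and KRT8, at 154 FPKM, in the epithelial sum. Among the stellate markers ACTA2 averaged 2.87 FPKM and COL1A2 3.28 FPKM. In the limma fit below, LOX, COL3A1 and SPARC passed as lower (log2 changes -1.04, -0.96 and -0.46, adjusted p = 0.00185, 0.0144 and 0.0435). COL1A2, ACTA2, VIM and TIMP1 had changes above 0 and the other stellate markers changes below 0, none of which passed. COL1A2 had 0.67, 0.71 and 6.73 FPKM in TGF-β libraries. Whether these differences bear on the genes below was not tested. LIG replicate 3 and TGF-β replicate 2 stood apart from the other 4 libraries on the first principal component (55.1% of the variance), and the second (23.8%) separated LIG from TGF-β. Results that rest on this pair are therefore given with and without it. The pair was picked for its deviation in these same data, and leaving it out leaves 1 library fewer in each group. This lowers the spread within groups, so p-values without the pair tend to be too small. Without it, 209 of all genes tested were called higher and 288 lower, against 20 and 54 with all libraries.

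No gene of the ATF4 response or the synthetases passed the test for a difference between LIG and TGF-β libraries. Of the 36 genes with a row, 29 had a mean of at least 1 FPKM and entered the fit of all 10695 such genes (limma on log2(FPKM + 1), Benjamini-Hochberg adjusted p under 0.05). None of the 29 passed, against 0.692% of all genes tested, of which 0.187% were higher and 0.505% lower. At an unadjusted p under 0.05, 4 of the 29 passed (CEBPB, PPP1R15A, TRIB3 and DDIT4), against 8.41% of all genes, and limma voom on the recovered fragments called none of the 29. Their median log2 change, LIG minus TGF-β, was 0.02, against 0.03 over all genes, and 20 of the 29 were above 0, against 60.9% of all genes. The 20 became 15 when the libraries were rescaled to equal totals, equal medians or equal quantiles. The median over all genes fell too, to 0.0084, 0.0045 and 0.0077 in that order. The share of all genes above 0 under these scalings is not given here. In bulk RNA, fewer cells expressing a gene and less of its RNA per cell cannot be told apart.

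The intervals were narrow enough to bound the changes on the log2(FPKM + 1) scale. The 95% interval of the log2 change stayed within 1.5-fold in both directions for 28 of the 29 genes, with CEBPB as the exception, and within 2-fold for all 29. The share of all 10695 genes within 1.5-fold was 97.4%. On the log2(FPKM + 1) scale the median within-group SD of the 29 genes was 0.09, against 0.10 over all genes, and their median absolute change was 0.06, against 0.07. Because 1 is added before the log, fold changes of weakly expressed genes come out smaller than in FPKM. By limma voom on genes with a mean of at least 10 fragments, the intervals of DDIT4 and ALDH1L2 also reached beyond 1.5-fold. Their lower bounds there were log2 changes of -0.73 and -0.63.

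**Figure D1:**
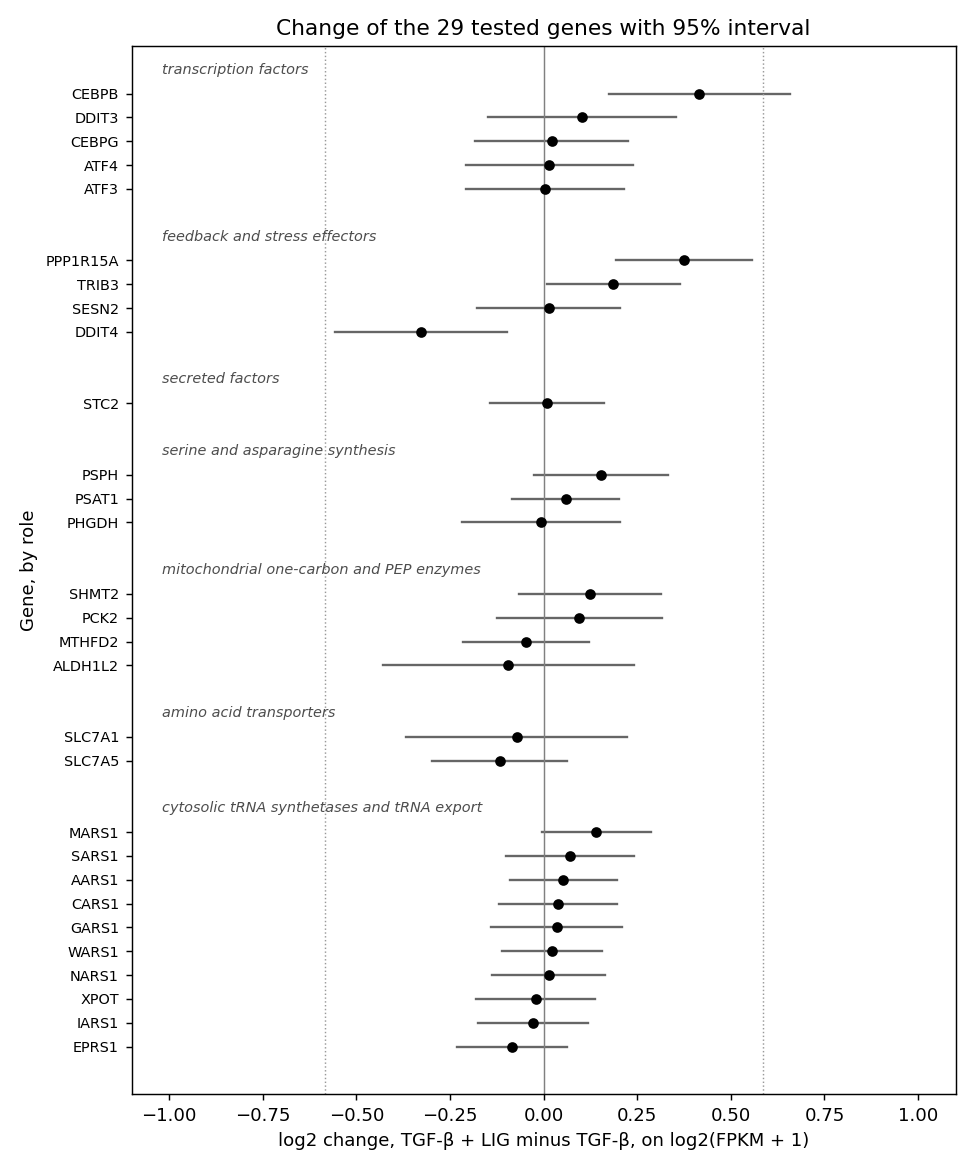
Log2 change of each of the 29 tested genes, TGF-β with LIG minus TGF-β, on the log2(FPKM + 1) scale (x axis), grouped by role (y axis); points are limma estimates and bars 95% intervals from 3 libraries in each group. Dotted lines mark a 1.5-fold change, which only the interval of CEBPB crosses, and most points lie close to 0.

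Among the transcription factors, ATF4 mRNA (chr22:39519695-39522685, GRCh38, plus strand) did not separate the groups. It stood at 24.9, 25.0 and 31.3 FPKM in LIG libraries 1 to 3, against 25.8, 28.3 and 25.7 FPKM in TGF-β libraries 1 to 3. The TGF-β libraries all lay inside the range of the LIG libraries, and the highest value was that of LIG replicate 3. The log2 change was 0.02 with a 95% interval of -0.21 to 0.24 (limma adjusted p = 0.991). Without LIG replicate 3 and TGF-β replicate 2 it was -0.05 (limma adjusted p = 0.527). The length behind the FPKM of ATF4 exceeds this gene span, as described below. DDIT3, which encodes the pro-apoptotic factor CHOP, had 10.6, 11.3 and 13.8 FPKM in LIG libraries and 10.2, 12.3 and 10.4 FPKM in TGF-β libraries, a log2 change of 0.10 (limma adjusted p = 0.905). Its exons overlap those of MARS1 on the opposite strand in GENCODE 29, and whether strand was used in counting is not stated, so reads of the 2 genes may be shared.

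ATF3, a repressor induced downstream of ATF4, ranged from 3.76 to 4.90 FPKM in LIG libraries and from 4.06 to 4.63 FPKM in TGF-β libraries. CEBPG, a dimer partner of ATF4 with the core in its promoter window, ranged from 12.0 to 13.2 FPKM in LIG libraries and from 11.1 to 14.0 FPKM in TGF-β libraries. The groups of both genes overlapped, and their log2 changes were 0.00 and 0.02. NUPR1, a stress-induced chromatin protein, was close to undetected, with 16 fragments in all LIG libraries together and 13 in all TGF-β libraries together.

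CEBPB (chr20:50190734-50192689, GRCh38, plus strand), a C/EBP factor that pairs with ATF4 and also drives inflammatory and fibroblast genes, was the transcription factor whose groups lay apart. It had 32.6, 32.0 and 40.7 FPKM in LIG libraries, against 24.5, 28.5 and 24.9 FPKM in TGF-β libraries. Every LIG library was above every TGF-β library, and within each group the library that stands apart was the highest. The means were 35.1 ± 4.9 FPKM in LIG libraries and 26.0 ± 2.2 FPKM in TGF-β libraries (SD, n = 3 each), a log2 change of 0.42 with a 95% interval of 0.17 to 0.66 that did not pass adjustment (limma adjusted p = 0.231). Without LIG replicate 3 and TGF-β replicate 2 the log2 change was 0.37 and passed (limma adjusted p = 0.00102), when 1.95% of all genes were called higher. Over single libraries left out the adjusted p ran from 0.160 to 0.764, and the antisense gene CEBPB-AS1 overlaps its exon.

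The effectors held 3 of the 4 genes with an unadjusted p under 0.05. PPP1R15A (chr19:48872392-48876057, GRCh38, plus strand), also called GADD34, directs a phosphatase to eIF2 and so ends the stress signal. It had 38.6, 40.1 and 46.6 FPKM in LIG libraries, against 31.9, 31.8 and 31.8 FPKM in TGF-β libraries. All LIG values were higher, and the TGF-β values were almost equal to each other. The means were 41.8 ± 4.2 FPKM in LIG libraries and 31.9 ± 0.06 FPKM in TGF-β libraries (SD, n = 3 each). The log2 change of 0.38, with a 95% interval of 0.19 to 0.56, gave the smallest adjusted p of the 29 genes (limma, 0.118). It passed after rescaling to TPM (limma adjusted p = 0.0438), after quantile normalization (0.0412) and without the pair of libraries that stand apart (0.00340, log2 change 0.30). It missed when any single library was left out (0.0534 to 0.527). Over all genes, 30 were called higher after rescaling to TPM, 32 after quantile normalization and 209 without the pair, against 20 with none of these.

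TRIB3, a pseudokinase that binds ATF4 and dampens it, had 3.18, 3.09 and 2.94 FPKM in LIG libraries, against 2.33, 2.89 and 2.53 FPKM in TGF-β libraries. The groups lay apart by a small gap between LIG replicate 3 and TGF-β replicate 2, and the log2 change was 0.19 (limma adjusted p = 0.567). Without both of these libraries it was 0.27 (limma adjusted p = 0.0744). TRIB3 also had the fewest fragments of the tested genes, 139 in its lowest library. DDIT4, or REDD1, an inhibitor of mTORC1 induced by several stresses, lay the other way, with 2.88, 3.18 and 3.87 FPKM in LIG libraries, against 3.97, 4.72 and 4.49 FPKM in TGF-β libraries. All LIG values were lower, LIG replicate 3 nearest to the TGF-β libraries. The log2 change was -0.33 with a 95% interval of -0.56 to -0.10 (limma adjusted p = 0.340), and without the pair that stands apart it was -0.38 (0.0323), when 2.69% of all genes were called lower. DDIT4 has an annotated antisense gene, DDIT4-AS1, over its exons.

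SESN2, which restrains mTORC1 when leucine is short, ranged from 2.40 to 2.93 FPKM in LIG libraries and from 2.48 to 2.83 FPKM in TGF-β libraries, with overlapping groups. CHAC1, which degrades glutathione, was under the filter at 0.68, 0.74 and 0.84 FPKM in LIG libraries, against 0.53, 0.58 and 0.48 FPKM in TGF-β libraries. Every LIG value of CHAC1 was the higher, and limma voom on genes with a mean of at least 10 fragments gave a log2 change of 0.49 (adjusted p = 0.369). VLDLR, a lipoprotein receptor induced under endoplasmic reticulum stress, was also under the filter at 0.80, 0.70 and 0.77 FPKM in LIG libraries, against 0.91, 0.97 and 1.05 FPKM in TGF-β libraries. Its LIG values were all lower, with a log2 change of -0.36 in the same voom fit (adjusted p = 0.369). That fit called 0.553% of its 14284 genes.

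**Figure D2:**
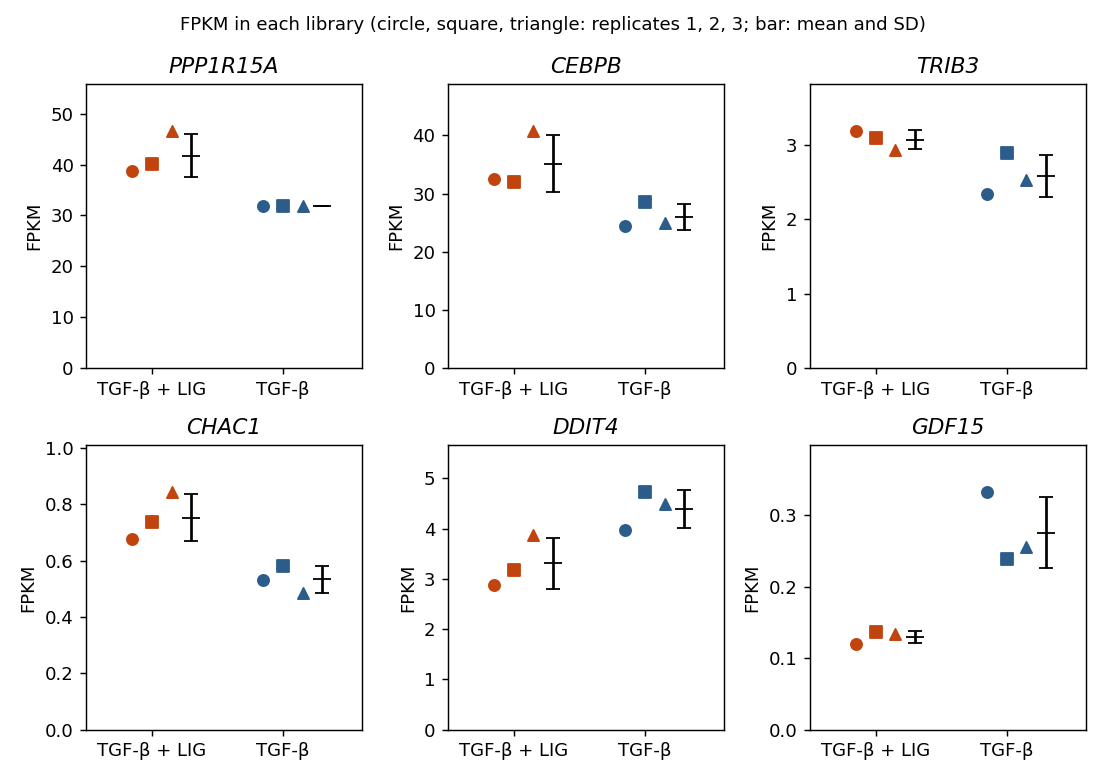
FPKM of 6 genes of the ATF4 response whose groups did not overlap, picked after their values were seen (y axes, each from 0), in the 3 LIG libraries at left and the 3 TGF-β libraries at right; circles, squares and triangles are replicates 1, 2 and 3, and bars give the mean and SD. PPP1R15A, CEBPB, TRIB3 and CHAC1 lie higher in LIG libraries, and DDIT4 and GDF15 lower, with none passing adjustment over all genes.

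Over the 29 genes, the 3 LIG values all lay above or all below the 3 TGF-β values in 7 (24.1%), against 15.8% of all genes. They were higher in CEBPB, PPP1R15A, TRIB3, PSPH and MARS1, where the share of all genes was 9.07%, and lower in DDIT4 and EPRS1, where it was 6.73%. No test was made of whether 7 of 29 differs from the share over all genes.

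The secreted factors showed one abundant mRNA and little else. STC2, a glycoprotein hormone, had 24.6, 25.0 and 25.2 FPKM in LIG libraries, against 24.8, 23.3 and 26.5 FPKM in TGF-β libraries. Its groups overlapped, with a log2 change of 0.01 and a 95% interval of -0.14 to 0.16. GDF15, a stress hormone that acts on the brainstem to reduce feeding, rested on very few fragments, 8, 9 and 9 in LIG libraries against 22, 16 and 17 in TGF-β libraries. Its level was 0.130 ± 0.008 FPKM in LIG libraries and 0.275 ± 0.050 FPKM in TGF-β libraries (SD, n = 3 each), a ratio of the means of 0.472. All LIG values were lower, and the voom fit gave a log2 change of -1.03 (adjusted p = 0.443, and 0.218 by limma with no filter). INHBE, an activin subunit known from hepatocytes, had 6 fragments in all LIG libraries together and 5 in all TGF-β libraries together.

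Among the enzymes of serine and asparagine synthesis, the serine branch had from 2.42 to 23.9 FPKM and ASNS was counted at 0.13 FPKM or less. ASNS, asparagine synthetase, whose promoter element is one of the best studied of the ATF4 sites, had 0.07, 0.10 and 0.05 FPKM in LIG libraries, against 0.07, 0.13 and 0.05 FPKM in TGF-β libraries. This was 27 fragments over the LIG libraries and 31 over the TGF-β libraries, too few for a comparison. AC079781.5 overlaps exons of ASNS on the same strand in GENCODE 29, and how shared reads were counted is not stated, so the low count may not be the level of its mRNA. PSAT1, which makes phosphoserine, had 23.1, 23.3 and 23.9 FPKM in LIG libraries, against 21.9, 23.7 and 21.8 FPKM in TGF-β libraries. The groups of PSAT1 overlapped at a log2 change of 0.06, and those of PHGDH, the first enzyme of the branch, at -0.01, with 7.98 to 9.68 FPKM in LIG libraries and 7.82 to 9.15 FPKM in TGF-β libraries. PSPH, which releases serine, ranged from 2.94 to 3.30 FPKM in LIG libraries and from 2.42 to 2.91 FPKM in TGF-β libraries. Its groups lay just apart, with a log2 change of 0.15 (limma adjusted p = 0.678).

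The mitochondrial one-carbon enzymes take serine onward to glycine and formate. SHMT2, which splits serine to glycine, ranged from 49.7 to 58.5 FPKM in LIG libraries and from 46.0 to 52.0 FPKM in TGF-β libraries. MTHFD2, the next step, ranged from 31.2 to 34.2 FPKM in LIG libraries and from 31.9 to 36.1 FPKM in TGF-β libraries. Both overlapped between the groups, with log2 changes of 0.12 and -0.05. ALDH1L2, which oxidizes formyl groups to carbon dioxide, had 1.99, 2.03 and 1.28 FPKM in LIG libraries, against 2.30, 1.44 and 2.13 FPKM in TGF-β libraries. The low value in each group was that of the library that stands apart, and the log2 change was -0.09 with a 95% interval of -0.43 to 0.24. Without the pair that stands apart it was -0.10 with an interval of -0.26 to 0.07. PCK2, the mitochondrial enzyme making phosphoenolpyruvate, ranged from 4.02 to 5.31 FPKM in LIG libraries and from 3.89 to 4.41 FPKM in TGF-β libraries. None of these 4 genes had an adjusted p below 0.790 (limma).

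Of the amino acid transporters, SLC7A1, which imports arginine and lysine, had the highest mean of all the genes listed, 117 FPKM over the 6 libraries. It had 125, 124 and 94.2 FPKM in LIG libraries, against 128, 105 and 126 FPKM in TGF-β libraries. LIG replicate 3 and TGF-β replicate 2 were its low values, and the log2 change was -0.07 with a 95% interval of -0.37 to 0.22. Without both of these libraries it was -0.03 with an interval of -0.11 to 0.04. SLC7A5, the light chain of the leucine carrier LAT1, ranged from 25.8 to 28.5 FPKM in LIG libraries and from 26.5 to 30.9 FPKM in TGF-β libraries, with a log2 change of -0.12 (limma adjusted p = 0.793). SLC6A9, a glycine carrier, had 0 fragments in LIG libraries and 1 in TGF-β libraries. Its absence from the fit is a matter of level, not of a difference between the groups.

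The cytosolic synthetases load amino acids onto tRNA, and their mRNAs were abundant and even. Their mean levels ran from 12.8 FPKM for CARS1 (cysteine) to 66.8 FPKM for MARS1 (methionine). MARS1 had 67.8, 68.4 and 74.0 FPKM in LIG libraries, against 63.6, 63.1 and 63.5 FPKM in TGF-β libraries. Every LIG value was higher, with a log2 change of 0.14 (limma adjusted p = 0.597). EPRS1, the glutamate and proline enzyme, lay the other way with 31.7, 30.9 and 28.4 FPKM in LIG libraries, against 32.6, 31.8 and 32.3 FPKM in TGF-β libraries. Its log2 change was -0.08 with a 95% interval of -0.23 to 0.06. The groups of the other 7 synthetases and of XPOT, which carries tRNA out of the nucleus, overlapped. GARS1 (glycine), for one, had 41.1, 39.7 and 45.6 FPKM in LIG libraries, against 41.4, 43.1 and 38.6 FPKM in TGF-β libraries.

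NARS1 (asparagine), IARS1 (isoleucine), SARS1 (serine), WARS1 (tryptophan), AARS1 (alanine), GARS1 and CARS1 had log2 changes between -0.03 and 0.07. Across the 9 synthetases and XPOT the log2 changes ran from -0.08 to 0.14 with a median of 0.03. The lowest bound of any of their 95% intervals was a 0.852-fold level and the highest a 1.22-fold level. Tested genes with the core in their promoter window, 9 in number, had a median log2 change of 0.02 and a range of -0.07 to 0.14. The 17 tested genes with a window that lacks it also had a median of 0.02, with a range of -0.33 to 0.42. The 4 genes with an unadjusted p under 0.05 were all among these 17, which are the larger set. Other forms of the element and sites outside the window were not searched, so these genes may have them. Whether the core goes with the change was not tested.

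**Figure D3:**
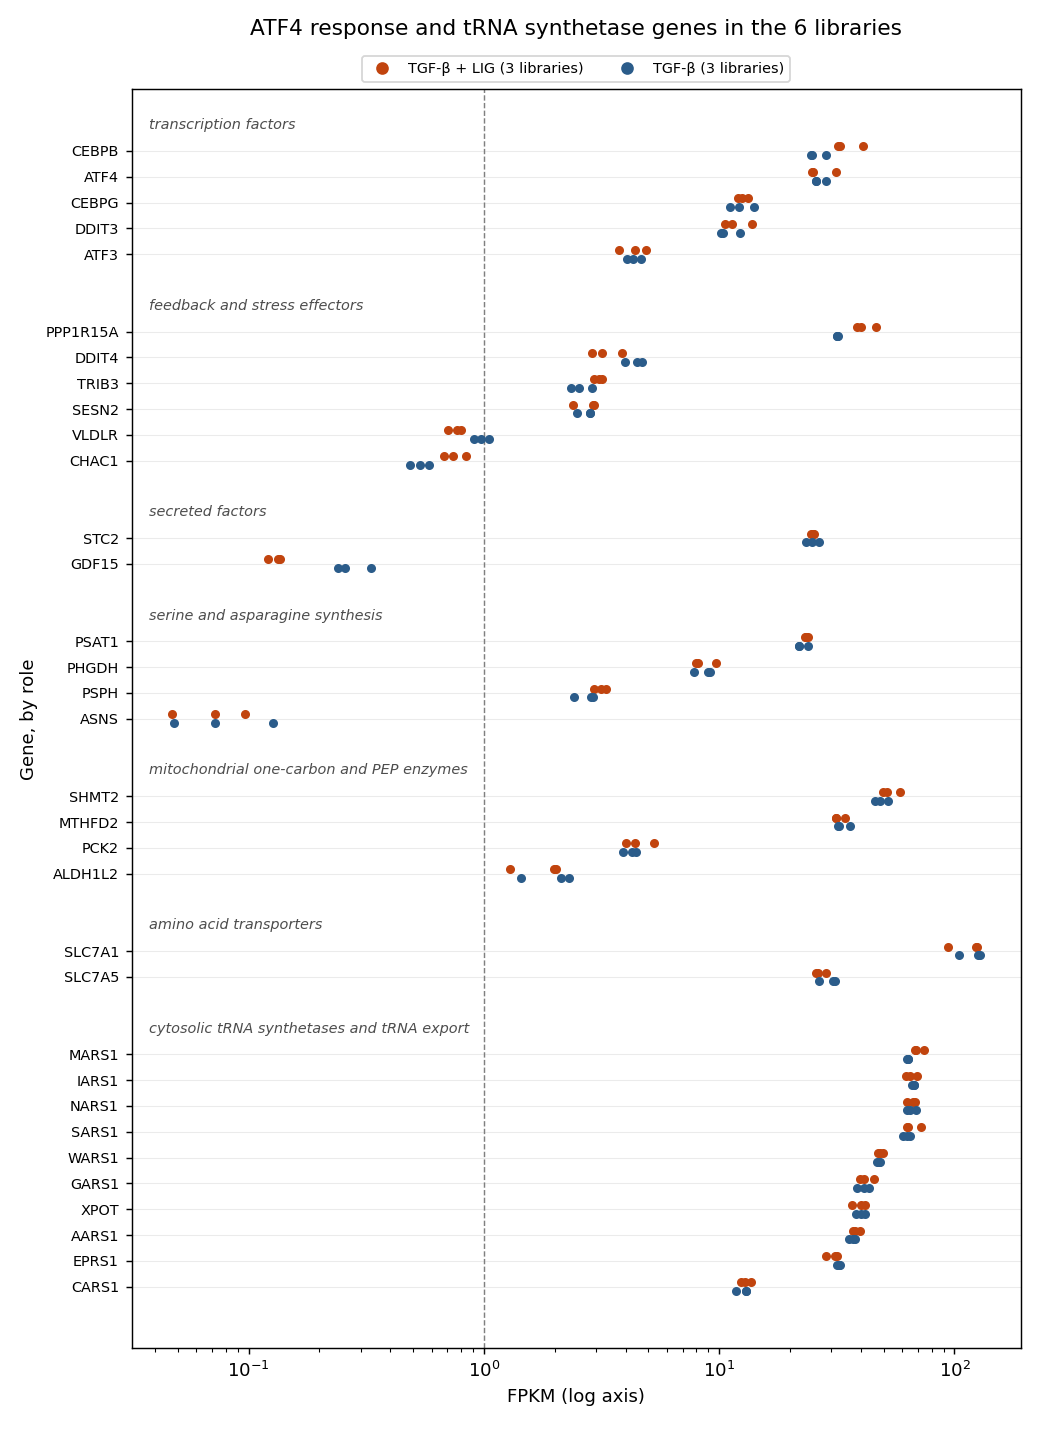
FPKM of the genes of the ATF4 response and the tRNA synthetases in each of the 6 libraries (log x axis), by role (y axis), with LIG libraries drawn above TGF-β libraries; the dashed line marks 1 FPKM, the mean needed for testing, and NUPR1, INHBE and SLC6A9, each with a library at 0, are left out. The synthetases lie above 10 FPKM, while ASNS, GDF15, CHAC1 and VLDLR lie below or about 1 FPKM in both groups.

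The deviations of the 2 libraries that stand apart were often larger than the change between the groups. LIG replicate 3 and TGF-β replicate 2 deviated from the other libraries of their group in the same direction in 22 of the 29 genes (75.9%), against 74.5% of all genes. In 14 of the 29 both deviations were larger than the change between LIG and TGF-β (48.3%), against 47.5% of all genes. A deviation sets 1 library against a mean of 2, while the change sets means of 3 against each other, so a deviation varies more. The 2 libraries were also picked from these same data, so these shares are a description and not a test. ATF4 deviated by 0.32 in LIG replicate 3 and by 0.13 in TGF-β replicate 2 on the log2(FPKM + 1) scale, and DDIT3 by 0.31 and 0.24. SLC7A1 deviated by -0.40 in LIG replicate 3 and by -0.28 in TGF-β replicate 2, and ALDH1L2 by -0.40 in both. Across the 29 genes the deviations of the 2 libraries had a Pearson r of 0.76 and a Spearman rho of 0.66, against 0.68 and 0.67 across all genes. Each point shares its 2 libraries with all the others, so the correlation is a description across genes. The genes listed here thus followed the split between libraries at about the rate of all genes.

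**Figure D4:**
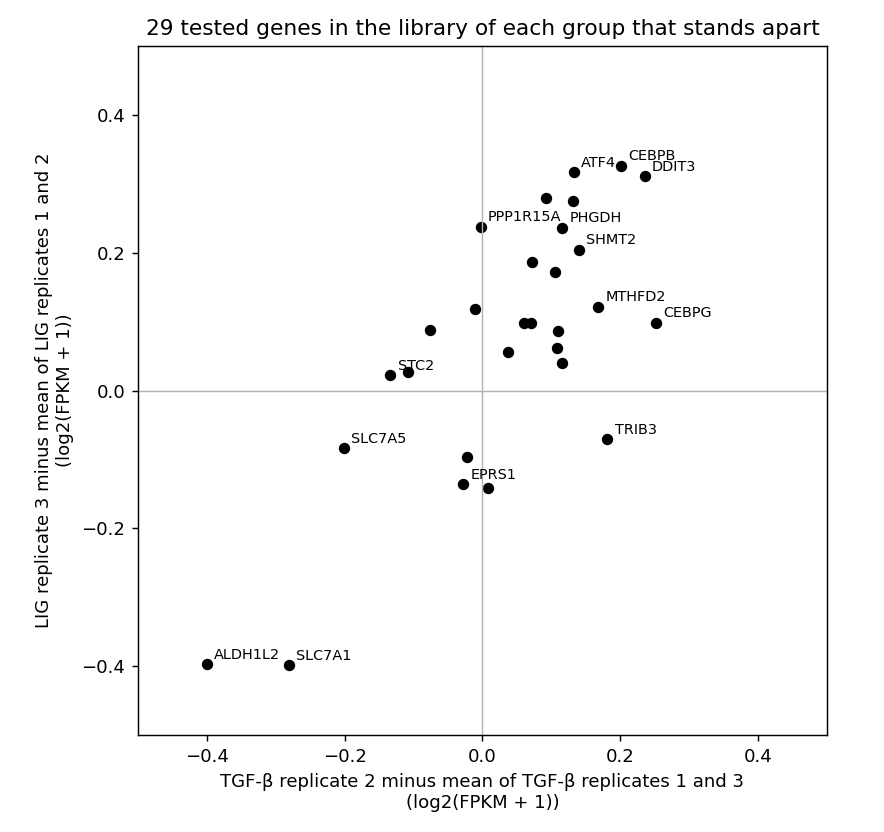
Deviation of LIG replicate 3 from the mean of LIG replicates 1 and 2 (y axis) against that of TGF-β replicate 2 from the mean of TGF-β replicates 1 and 3 (x axis), both in log2(FPKM + 1), with 1 point for each of the 29 tested genes. Most points, 22 of 29, lie at upper right or lower left, with ATF4, DDIT3 and CEBPB at upper right and SLC7A1 and ALDH1L2 at lower left.

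The neighbouring genes of the pathway were read from lists of the same kind, and none of their tested genes passed in the fit of all genes. Of the other cytosolic synthetases and their scaffold proteins, 0 of 14 passed, with a median log2 change of 0.08. In 2 of the 14 the groups lay apart (14.3%), both higher, against 15.8% of all genes in either direction. VARS1, the valine enzyme, had the smallest adjusted p of these, with 20.5 ± 0.5 FPKM in LIG libraries and 17.8 ± 0.9 FPKM in TGF-β libraries (SD, n = 3 each; log2 change 0.19, limma adjusted p = 0.399). YARS1 (tyrosine) and HARS1 (histidine) followed with log2 changes of 0.13 each. Of the mitochondrial synthetases 0 of 17 passed, with a median of 0.07 and with MARS2, AARS2 and CARS2 at log2 changes of 0.23, 0.18 and 0.14.

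Of the genes that control eIF2, its kinases, the factor eIF2B and the phosphatase, 0 of 16 passed, with a median log2 change of 0.07. EIF2AK3, which encodes PERK, the kinase of the endoplasmic reticulum, had 5.81 ± 0.08 FPKM in LIG libraries and 6.67 ± 0.17 FPKM in TGF-β libraries (SD, n = 3 each). Its groups did not overlap, at a log2 change of -0.17 (limma adjusted p = 0.446). EIF2B3 and EIF2B5, subunits of the exchange factor of eIF2, had log2 changes of 0.15 and 0.13. The mRNAs of the phosphorylation step do not report its activity, which was not measured.

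Of the other ATF4 target genes 0 of 17 passed, with a median log2 change of 0.00. In 6 of the 17 the groups lay apart (35.3%), against 15.8% of all genes, 4 of them higher (SLC7A11, SLC3A2, SQSTM1 and SLC1A5) and 2 lower (PYCR1 and ALDH18A1). SLC1A5, PYCR1 and ALDH18A1 are named after their values were seen. SLC7A11, the cystine importer, which NRF2 also controls, was closest to passing, with a log2 change of 0.85 (limma adjusted p = 0.0596). It passed without LIG replicate 3 (0.00326), without the pair that stands apart (0.000388), with a pseudocount of 0.1 (0.0482), after quantile normalization (0.0452) and by limma voom (0.0447). Over the other single libraries left out, its adjusted p ran up to 0.280. SLC3A2, the heavy chain shared by SLC7A11 and SLC7A5, had 83.3, 83.3 and 99.3 FPKM in LIG libraries, against 67.2, 75.2 and 69.9 FPKM in TGF-β libraries. Every LIG value was higher, with a log2 change of 0.32 (limma adjusted p = 0.284, 0.0353 after quantile normalization, 0.00340 without the pair and 0.207 to 0.862 with single libraries left out). SQSTM1, the autophagy receptor p62 and likewise a target of NRF2, had 91.9, 92.0 and 107 FPKM in LIG libraries, against 65.2, 75.1 and 69.3 FPKM in TGF-β libraries. Its LIG values were all higher, with a log2 change of 0.47 (limma adjusted p = 0.0729, 0.0122 after rescaling to TPM, 0.00499 after quantile normalization, 0.000573 without the pair and 0.0599 to 0.402 with single libraries left out). PYCR1, an enzyme of proline synthesis, had 21.4, 21.8 and 26.6 FPKM in LIG libraries, against 26.7, 28.1 and 28.3 FPKM in TGF-β libraries. Its LIG values were all lower, LIG replicate 3 only just, with a log2 change of -0.25 (limma adjusted p = 0.460, 0.0362 without LIG replicate 3, 0.00359 without the pair and up to 0.999 with another library left out). ALDH18A1, which also serves proline synthesis, had a log2 change of -0.09 (limma adjusted p = 0.790), and SLC1A5, a glutamine carrier, one of 0.16 (0.503).

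Of the cytosolic folate and serine cycle 0 of 10 passed, with a median log2 change of 0.01. SHMT1, which splits serine to glycine in the cytosol, had a log2 change of -0.09, and ATIC, which uses formyl folate in purine synthesis, one of 0.09 (limma adjusted p = 0.835 and 0.880). Of the ATF6 and XBP1 arm of the unfolded protein response, which raises chaperones of the endoplasmic reticulum, 0 of 15 passed, with a median of -0.07. XBP1, the factor spliced by the stress sensor IRE1, had 34.0, 35.3 and 40.2 FPKM in LIG libraries, against 43.0, 46.3 and 41.6 FPKM in TGF-β libraries. Its LIG values were all lower, with a log2 change of -0.25 (limma adjusted p = 0.362, 0.00559 without the pair and 0.0843 to 0.805 with single libraries left out). ERN1, which encodes IRE1, lay the other way at a log2 change of 0.26 (limma adjusted p = 0.464), and CALR, the chaperone calreticulin, had a log2 change of -0.15 (0.755, 0.0387 without the pair and at least 0.352 with single libraries left out). With library quality weights limma called 1117 of all genes higher and 774 lower. Of the related genes named here, it then called VARS1, MARS2, SLC7A11, SLC3A2, SQSTM1, SLC1A5 and ERN1 higher. It called EIF2AK3, PYCR1, XBP1 and CALR lower. Related genes that are not named were not read under these weights.

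Levels are compared between genes per length, and the length behind the deposited FPKM was not the same kind for every gene. It was 7716 bases for ATF4, 6081 for CHAC1 and 7645 for PHGDH, against a longest GENCODE 29 transcript of 2019, 1849 and 3180 bases. For the same fragments, this longer length lowers the FPKM levels of these 3 genes beside those of other genes. PSPH, GDF15, ASNS and ATF3 also had lengths above their longest transcript, by less. Others had shorter lengths, which raise the level, such as CARS1 (3511 against 5732 bases), TRIB3 (1544 against 2499) and MARS1 (2800 against 3592). CARS1 and MARS1 are the ends of the range of synthetase levels given above. For ATF4 (chr22:39519695-39522685) and CHAC1 (chr15:40952962-40956519) the length also exceeds the whole GENCODE 29 gene, introns included. Which bases were counted is not given, so fragments of these genes may come from outside the printed spans. A lower level also brings a gene nearer the filter of 1 FPKM and makes its change on the log2(FPKM + 1) scale smaller. CHAC1, under the filter, had a log2 change of 0.19 on that scale with no filter (limma adjusted p = 0.456), against the 0.49 by voom.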

How the data were processed

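The deposited values are the authors' FPKM of each gene in each library, per the file headers. Tools listed in the submitters' processing notes are HISAT2 2.1.0, fastp and DESeq2, with build GRCh38.p13. The counting tool and use of strand are not given in the sources used here. The labels describe TGF-β and LIG as transfected, which was read as added, and the unit of the TGF-β dose was not checked. Genes with a mean of at least 1 FPKM over the 6 libraries (10695 of 22701) were tested on log2(FPKM + 1), LIG minus TGF-β, with limma 3.58.1 (group only, mean-variance trend, two-sided) and Benjamini-Hochberg adjustment at 0.05. With 3 libraries a side the smallest p of an exact permutation test is 0.1, so none was used. The FPKM were read as whole multiples of a step per gene, and whole fragments were recovered for 22701 genes. The length of each gene was the smallest that made its values whole within 0.01. That 100% of 114123 values above 0 were within 0.01 follows from this choice and does not test the recovery. Fragments that share a common factor may come out too low. They served for depth and for limma voom.

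The fit was also run on simulated data whose libraries varied independently. Those data lacked the split of the pair of libraries that stand apart, so they do not show how the fit performs here. Members and gene lists were chosen with earlier results of these data known. All 37 members were named, and of each related list up to 3 with the smallest adjusted p, of which 1 is not reported here. Sequences came from a RefSeq promoter table (GRCh38.p14), and coordinates and overlaps of genes from GENCODE 29 (GRCh38). Alternatives were other pseudocounts, filters, scalings and variance models, the replicate number as a block, leaving out libraries, and voom. Replicates of the same number did not deviate together in every pair. Python 3.11.15 and R 4.3.3 were used.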

Additional observations from a re-analysis of the deposited data

How the results depend on the processing

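Over 544 values of the 29 tested genes under 19 alternatives, 533 kept their side of the threshold and 11 moved past it. The change exceeded its standard error in 10 genes, and none of their 186 values changed sign. In the other 19 genes, whose direction was not read, 54 of 358 values changed sign. Genes of the list called higher became 1 after rescaling to TPM and 1 under quantile normalization (PPP1R15A both times), 4 with library quality weights (CEBPB, PPP1R15A, TRIB3, MARS1) and 2 without LIG replicate 3 and TGF-β replicate 2 together (CEBPB, PPP1R15A). Those called lower became 2 with quality weights (DDIT4, SLC7A5) and 1 without that pair (DDIT4). Leaving out single libraries called 0 to 0 of them in each direction. Over all genes, 20 were called higher and 54 lower. These became 30 and 56 after rescaling to TPM and 32 and 75 under quantile normalization. With no filter they became 5 and 9, with quality weights 1117 and 774, and without the pair 209 and 288. Leaving out single libraries gave 6 to 24 higher and 5 to 69 lower. The higher and lower counts were 9 and 13 without LIG replicate 1, 8 and 12 without LIG replicate 2, 9 and 12 without TGF-β replicate 1 and 6 and 5 without TGF-β replicate 3, and the lower count was 15 without TGF-β replicate 2. Without LIG replicate 3 they were 24 and 69. The causes were not tested. The replicate block gave 9 higher and 13 lower and none of the list (smallest limma adjusted p 0.354). Deviations of same-numbered libraries correlated at 0.469, -0.574 and -0.337 for numbers 1, 2 and 3. Those of LIG replicate 3 and TGF-β replicate 2 correlated at 0.675. That split shapes all these values, so they cannot decide whether libraries of the same number were paired. The core TGATGCAA was found in 7 promoter windows in place of 11. Voom on genes with a mean of at least 10 fragments was chosen after seeing the data. Few fragments limit GDF15, ASNS, NUPR1, INHBE and SLC6A9.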
